A study of Homo sapiens and Mus musculus with 19 samples.

Results

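Transcripts of 10 regulators of cell death were followed through lung cancer cells in which NF-kB had been switched on or held off. They were BCL2, BCL2A1, BCL2L1, BCL2L11, MCL1, BAX, BAK1, XIAP, CFLAR and TNFAIP8. A probe set, the group of array probes read together as 1 value, was used when the annotation named a member symbol and no other gene, and the brightest such probe set stood for the gene. All 10 genes were measured and tested in the human lines, among 19775 human genes measured and 15212 tested. In mouse cells 8 of the 10 counterparts were measured and tested, among 18194 measured and 12549 tested genes. Bax was named by no single-gene probe set in the mouse annotation used here. The mouse Bcl2a1 paralogs were read only by 3 probe sets that each name several of them, and those were not above the 40th percentile of the array on any of the 4 mouse arrays.

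Apoptosis through the mitochondrion is decided by the balance among BCL2 family proteins. Survival members such as BCL2, BCL-XL (from BCL2L1), MCL1 and A1 (from BCL2A1) hold back the pore-forming effectors BAX and BAK, and BH3-only proteins such as BIM (from BCL2L11) counter the survival members. Downstream and beside this switch, XIAP inhibits caspases and c-FLIP (from CFLAR) blocks caspase-8 at death receptors. NF-kB is a transcription factor that inflammatory signals free from its inhibitor IkBα through the kinase IKKβ, and BCL2A1, BCL2L1, XIAP, CFLAR and TNFAIP8 are often listed among its survival targets.

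The study used retroviral vectors in 5 human lines of non-small cell lung cancer and in mouse Lewis lung carcinoma cells (LLC), which the labels name LLC-kB OVA. The human lines were A549, H23, H358, HCC827 and PC9. Cells of the IKKb group carried an activated IKKβ with serine-to-glutamate changes, cells of the IkB_SR group carried a mutant super-repressor form of IkBα, and cells of the MiG group carried the empty retrovirus. All of them had been sorted for the GFP that marks transduction, so the controls share the retrovirus, GFP and the sort. Each human line was measured once with each vector, which gave 5 IKKb, 5 IkB_SR and 5 MiG arrays. LLC was measured with 2 IKKb and 2 MiG arrays and without the super-repressor. The meaning of kB OVA, carried by all 4 LLC arrays, is not given in the labels, nor whether a sorted population was a pool or a clone or whether the LLC replicates were separate cultures. P-values in LLC therefore measure the spread between these samples, and p-values in the human lines measure vector effects against the differences in response between lines.

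The arrays were checked before the members were read. NFKBIA, the gene of IkBα, had a higher signal with IkB_SR than with MiG in A549, H358, HCC827 and PC9 but not in the array labelled H23 IkB_SR, at 7292 against 9329 in the H23 MiG array. In that same array the NF-kB targets TNFAIP3 and RELB were nevertheless low, at 927 against 2840 and at 259 against 548. Of 3 IKBKB probe sets, 1 was higher with IKKb than with MiG in 5 of 5 lines, by 1.43-fold to 4.02-fold, and the others were not. Which of them read the transduced sequence was not tested. TNFAIP3 and RELB were higher with IKKb than with IkB_SR in 5 of 5 lines (log2 3.39 ± 0.41 and 2.16 ± 0.23 by limma, adjusted p = 0.00143 and 0.000790). The H358 IKKb array stood apart technically from the other H358 arrays. Its Dap spike-in signal was 4376 against 1103 in the H358 IkB_SR array and 1128 in the H358 MiG array. Its actin 3′ to 5′ ratio, the highest of the human arrays, was 1.74 against 1.38 and 1.41. A Dap signal of that size was also read in other lines, as in PC9 with IKKb (4354). In PC9 the MiG array lay apart, at 2376, against 4047 with IkB_SR. Of 6 epithelial markers EPCAM, CDH1, KRT8 and KRT18 lay above the 40th percentile on 15 of 15 human arrays, KRT7 on 14 and KRT19 on 12. Of 5 measured alveolar and airway markers SFTPB did so on 15, SFTPC on 14, FOXJ1 on 8, NKX2-1 on 6 and SCGB1A1 on 2. Of the leukocyte markers PTPRC and LYZ did so on 1 of 15 arrays each, but ITGAM on 11, CD14 on 10 and CD3E on 7, and the summed signal of these 5 was 130 to 823 with IKKb, 119 to 421 with IkB_SR and 126 to 616 with MiG. Of 7 fibroblast and endothelial markers COL1A1 and PECAM1 lay above it on 15 of 15 arrays, PDGFRB and VWF on 0, and COL1A2, COL3A1 and CDH5 on 4 to 7. In LLC Krt8 and Krt18 lay above it on 4 of 4 arrays, Epcam on 3, Krt19 on 2, Krt7 on 1 and Cdh1 on 0. Of 6 alveolar and airway markers Sftpb did so on 4, Sftpc on 1 and Nkx2-1, Sftpa1, Scgb1a1 and Foxj1 on 0. Markers of other cell types were also split in LLC, with Cd14 (503 to 566), Cd68, Col1a2, Col3a1 (9899 to 20078) and Pdgfrb on 4 of 4 arrays and Ptprc, Itgam, Col1a1, Pecam1 and Vwf on 0. The part of such cells in the results was not tested. The LLC arrays differed by number in the Dap spike-in, at 1567 (IKKb) and 1679 (MiG) on those numbered 1 and 19.4 (IKKb) and 28.7 (MiG) on those numbered 2. Signals are MAS5 values that the authors scaled to the same trimmed mean on every array, so differences in total RNA are not visible. The 40th percentile, used here as the mark of a dim signal, ran from 28.7 to 45.0 on the human arrays.

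The proximal promoter of the member with the largest vector difference, BCL2A1, was read beside that of CFLAR at the 1 of its 4 annotated start sites with an NF-kB-type motif, and that of TNFAIP3, which the vectors moved. Each stretch runs from 250 bases before to 50 bases after the annotated start on the strand of the gene (RefSeq, GRCh38.p14). The coordinates are chr15:79971147-79971446 on the minus strand for BCL2A1, chr2:201118466-201118765 on the plus strand for CFLAR and chr6:137867009-137867308 on the plus strand for TNFAIP3. Capitals mark matches to GGGNNNTTCC or GGGNNNTCCC on either strand.
BCL2A1: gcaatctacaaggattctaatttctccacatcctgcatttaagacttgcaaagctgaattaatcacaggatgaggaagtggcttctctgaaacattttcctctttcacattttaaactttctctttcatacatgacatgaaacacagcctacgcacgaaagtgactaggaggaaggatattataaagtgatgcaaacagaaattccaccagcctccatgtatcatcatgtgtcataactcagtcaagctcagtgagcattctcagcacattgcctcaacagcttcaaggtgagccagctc
CFLAR: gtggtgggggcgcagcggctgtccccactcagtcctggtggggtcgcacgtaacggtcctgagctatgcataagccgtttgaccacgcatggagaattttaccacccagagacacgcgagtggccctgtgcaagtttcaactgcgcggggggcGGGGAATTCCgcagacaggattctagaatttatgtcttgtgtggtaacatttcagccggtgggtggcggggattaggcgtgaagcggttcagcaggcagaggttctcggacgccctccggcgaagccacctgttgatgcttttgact
TNFAIP3: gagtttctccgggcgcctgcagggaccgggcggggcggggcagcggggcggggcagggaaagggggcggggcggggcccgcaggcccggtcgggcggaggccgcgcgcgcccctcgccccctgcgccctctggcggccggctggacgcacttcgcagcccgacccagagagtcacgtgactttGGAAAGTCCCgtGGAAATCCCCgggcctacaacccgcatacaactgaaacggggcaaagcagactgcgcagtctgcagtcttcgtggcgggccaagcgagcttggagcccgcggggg
The CFLAR match, absent from the stretches of its other 3 start sites, reads GGGGAATTCC and begins at position -97 from the start. TNFAIP3 held 2 matches on the opposite strand, at -67 and -55, and the BCL2A1 stretch held none. No run of 10 letters can match both motifs on the same strand. Of the 35116 human promoter stretches, 13.0% held either motif, 6.52% the first and 7.59% the second. Promoters were found for 9 of the 10 members, all but MCL1, with 17 start sites in all. Of these 17 stretches 2 held a match (11.8%), the other being BCL2 with GGGCCCTCCC at -245. A match is a run of letters in this window and says nothing of binding.

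None of the 10 members passed the threshold of an adjusted p of 0.05 in any comparison of vectors by limma. Between IKKb and IkB_SR, the widest contrast of the design, 0 of 10 members passed, where 0.933% of all genes tested did. At an unadjusted p of 0.05 the counts were 2 of 10 members, BCL2A1 higher and BCL2L11 lower, against 14.2% of all genes. The same 2 were the members with 1 direction in 5 of 5 lines (10.2% of all genes). Between IKKb and MiG 0 of 10 passed (0% of all genes) and 1 of 10, BCL2A1, at the unadjusted level (5.52%). Between IkB_SR and MiG 0 of 10 passed (0% of all genes) and 1 of 10, BCL2L11, at the unadjusted level (4.44%). In 5 of 5 lines 1 of 10 members, BCL2, was lower with IKKb than with MiG (8.11% of all genes had 1 direction throughout), and 2 of 10, BCL2A1 lower and BCL2L11 higher, differed 1 way between IkB_SR and MiG (7.75%). The comparisons with MiG share the MiG arrays. The median log2 difference of the 10 members between IKKb and IkB_SR was 0.06, against -0.01 over all genes tested, and the median size of the difference regardless of sign was 0.11, against 0.14 over all genes. In these bulk samples fewer cells carrying a transcript and less transcript per cell cannot be told apart.

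**Figure D1:**
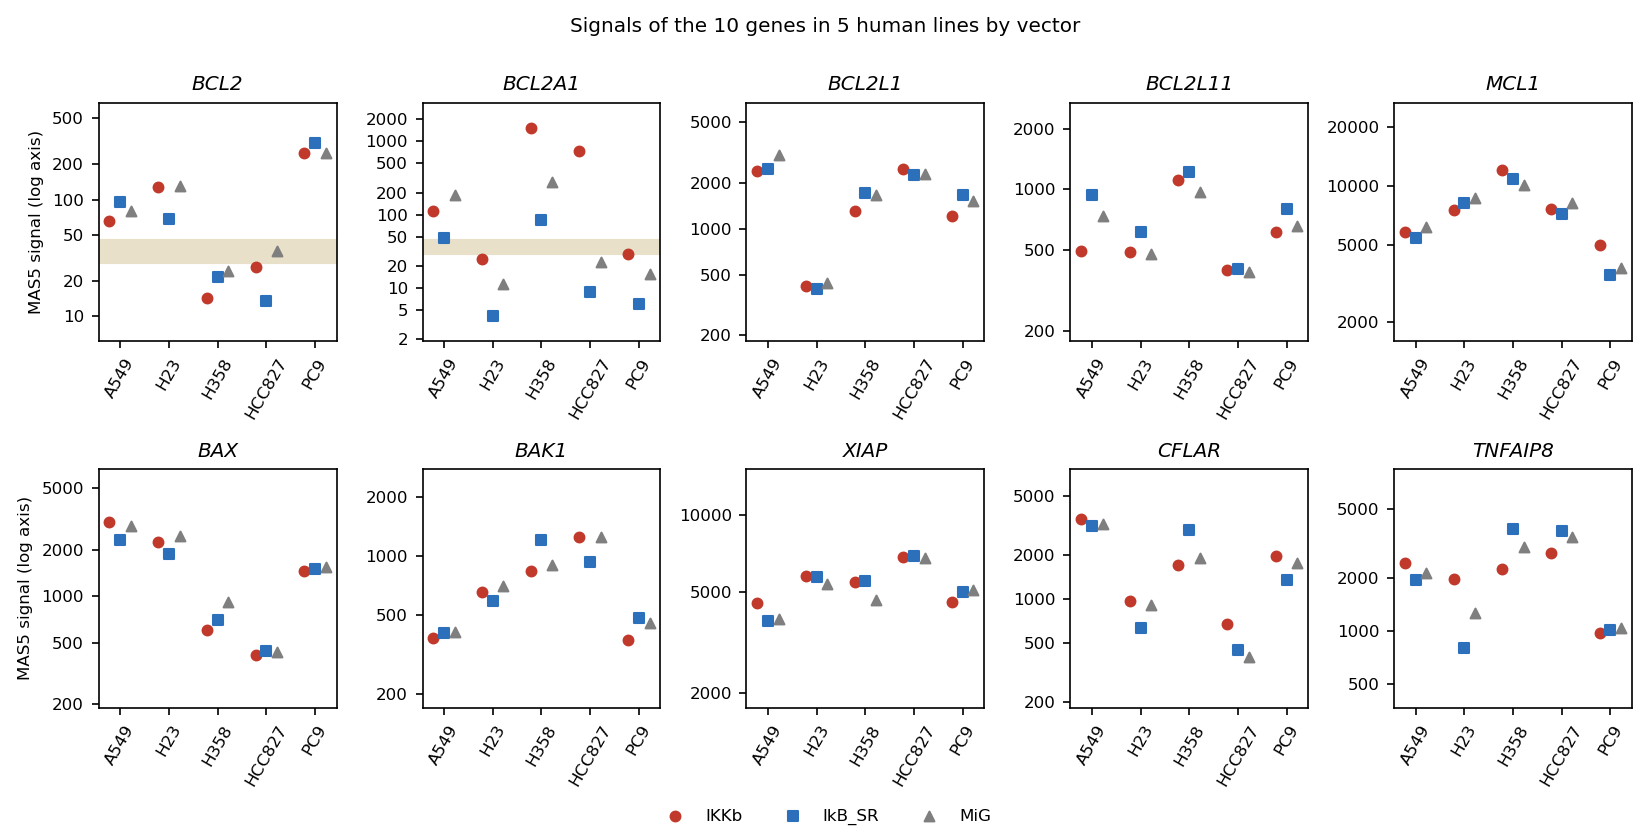
MAS5 signal (log axis) of the 10 genes in each human line, with IKKb, IkB_SR and MiG arrays as separate points and 1 array per point. The band in the BCL2 and BCL2A1 panels spans the 40th percentiles of the arrays, 28.7 to 45.0. Points of a line lie close together for most genes, while BCL2A1 spreads widely by vector in H358 and HCC827.

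BCL2A1, whose product A1 binds and restrains BH3-only proteins, showed the largest vector difference of the 10. Its signal with IKKb was 114 (A549), 25.1 (H23), 1529.7 (H358), 745 (HCC827) and 28.9 (PC9). With IkB_SR it was 48.7 (A549), 4.12 (H23), 83.4 (H358), 8.88 (HCC827) and 6.01 (PC9). With MiG it was 183 (A549), 11.3 (H23), 278 (H358), 22.5 (HCC827) and 15.3 (PC9). IKKb was higher than IkB_SR in every line, while the ranges of the vectors overlap because the lines start from very different levels. The H358 and HCC827 arrays with IKKb stand above all 13 other human arrays. Signals were dim, below the 40th percentile of the array, in 3 of 5 IkB_SR arrays (H23, HCC827 and PC9), 3 of 5 MiG arrays and 2 of 5 IKKb arrays.

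The mean BCL2A1 signal was 489 ± 655 with IKKb, 30.2 ± 35.0 with IkB_SR and 102 ± 122 with MiG (SD, n = 5 lines each). The log2 difference between IKKb and IkB_SR was 2.39 ± 0.56 (SE), or 5.25-fold with a 95% interval of 2.27-fold to 12.1-fold, and the limma adjusted p was 0.0669, which misses the threshold. By line it was 4.94 in HCC827 and 3.96 in H358, against 1.01 in A549, 1.03 in H23 and 1.03 in PC9, all measured on log2 of signal plus 16, a scale that compresses differences between dim signals. Against MiG, IKKb differed by log2 1.44 ± 0.56 (limma adjusted p = 0.878), higher in 4 of 5 lines and lower in A549 by a log2 difference of -0.61, and the mean was 0.72 without HCC827. The super-repressor differed from MiG by -0.95 ± 0.56 (limma adjusted p = 0.995) and was lower in 5 of 5 lines, from -1.62 in A549 to -0.44 in H23. Without HCC827 the difference between IKKb and IkB_SR was 1.76 and without the H358 IKKb array it was 2.08 (limma adjusted p = 0.178 and 0.153). A pseudocount of 1 (log2 3.21) or centring each array on its median (2.43) brought it past the threshold, at limma adjusted p = 0.0387 and 0.0492.

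**Figure D2:**
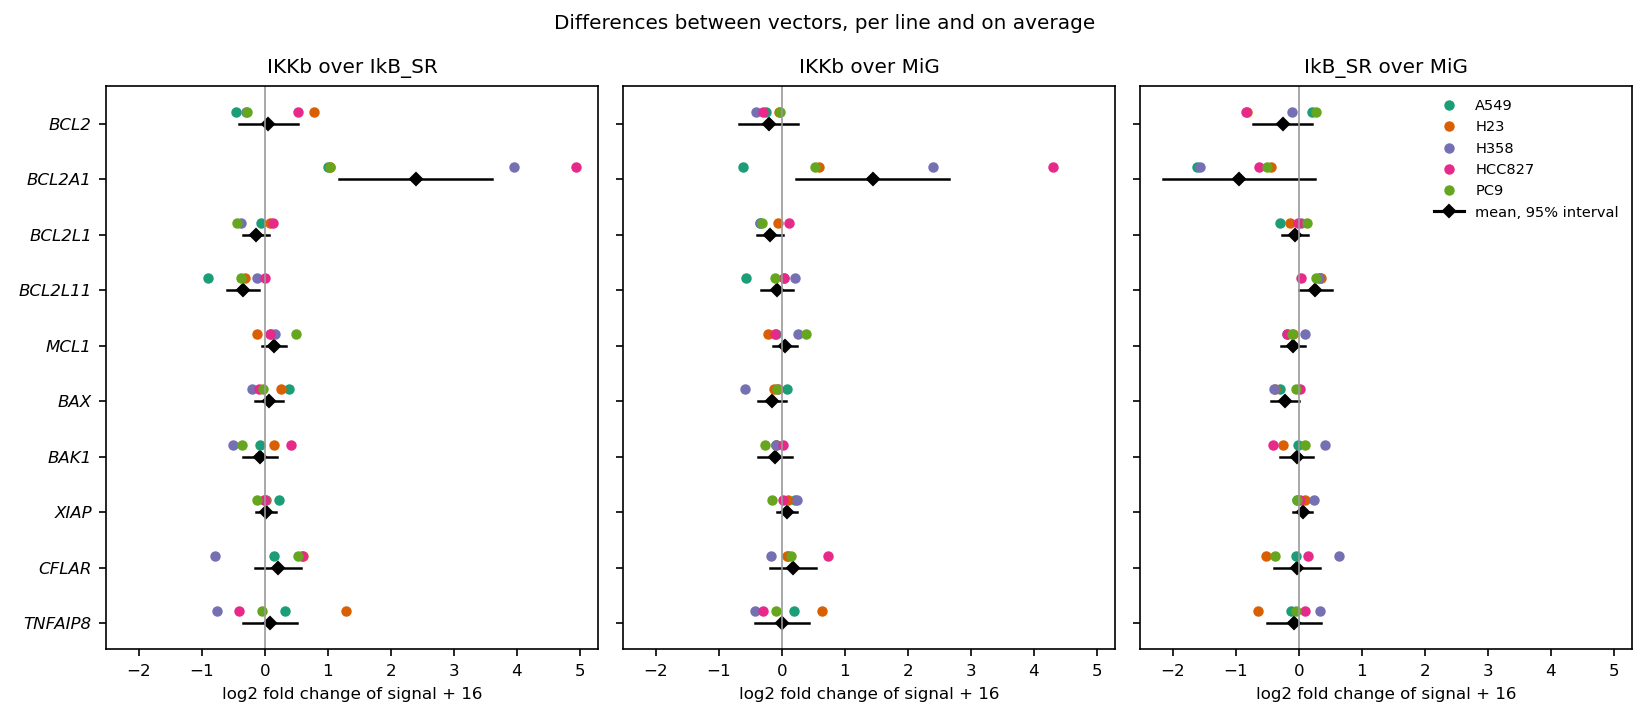
Log2 fold change of signal plus 16 for each gene between IKKb and IkB_SR, between IKKb and MiG and between IkB_SR and MiG. Coloured points are the 5 lines, black diamonds are means and black bars their 95% intervals. BCL2A1 lies far to the right between IKKb and IkB_SR, with HCC827 at 4.94 and H358 at 3.96, BCL2L11 lies at -0.35 with A549 at -0.90, and the lines of TNFAIP8 spread from -0.76 to 1.29.

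BCL2L11 encodes the BH3-only protein BIM, which promotes apoptosis. Its signal with IKKb was 493 (A549), 490.1 (H23), 1116 (H358), 402 (HCC827) and 613 (PC9). With IkB_SR it was 936 (A549), 615 (H23), 1219 (H358), 403 (HCC827) and 799 (PC9). With MiG it was 740.1 (A549), 480 (H23), 968 (H358), 391 (HCC827) and 658 (PC9). IkB_SR gave the highest of the 3 signals in each line, with 403 against 402 and 391 in HCC827, and the ranges of the vectors overlap. The log2 difference between IKKb and IkB_SR was -0.35 ± 0.12 (limma adjusted p = 0.217), from -0.90 in A549 to -0.00 in HCC827. IkB_SR lay above MiG by log2 0.26 ± 0.12 (limma adjusted p = 0.995), a difference of 0.27 to 0.35 in 4 lines and 0.04 in HCC827. IKKb against MiG gave -0.08 ± 0.12, lower in A549 by -0.57 and within 0.20 of MiG elsewhere. The other probe sets of BCL2L11 were split: 3 of 6 had the same sign between IKKb and IkB_SR and 4 of 6 between IkB_SR and MiG, with differences of -0.32 to 0.08 and of -0.04 to 0.26.

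Of the survival members, MCL1 protects cells by binding BAK and turns over quickly. Its signal with IKKb was 5823 (A549), 7529.5 (H23), 12145 (H358), 7613 (HCC827) and 4977 (PC9). With IkB_SR it was 5416, 8189, 10906, 7167 and 3511 in the same lines, and with MiG 6177, 8723, 10145, 8172 and 3806. The vectors overlap, and IKKb was above IkB_SR in 4 of 5 lines and by most in PC9, at a log2 difference of 0.50. The mean difference was 0.15 ± 0.09 (limma adjusted p = 0.499), and only 2 of 5 other MCL1 probe sets had its sign. BCL2L1, the gene of BCL-XL, gave -0.14 ± 0.10 between IKKb and IkB_SR (limma adjusted p = 0.563) and lay below IkB_SR in 3 of 5 lines, with the lowest value of -0.45 in PC9, while against MiG it gave -0.19 ± 0.10 (limma adjusted p = 0.878), lower in 4 of 5 lines. Its signals ran from 424 to 2465 with IKKb, from 402 to 2488 with IkB_SR and from 442 to 3057 with MiG, so the vectors overlap almost fully. BCL2, the founding survival gene of the family, gave 0.05 ± 0.22 (limma adjusted p = 0.947), and its signals of 14.4 to 248 with IKKb, 13.4 to 307 with IkB_SR and 24.5 to 252 with MiG were dim in 2, 2 and 1 of 5 arrays. By line BCL2 had 64.9, 127, 14.4, 26.4 and 248 with IKKb in A549, H23, H358, HCC827 and PC9, against 80.0, 132, 24.5, 36.4 and 252 with MiG. IKKb was the lower in every line, although the ranges overlap, and the log2 difference was -0.21 ± 0.22 (limma adjusted p = 0.933). IkB_SR against MiG gave -0.26 ± 0.22 for BCL2 (limma adjusted p = 0.995), lower in 3 of 5 lines. Another tested BCL2 probe set, dimmer on average, differed by -0.70 ± 0.20 between IKKb and IkB_SR (limma adjusted p = 0.138), against the sign of the brightest.

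The effectors BAX and BAK1, which open the outer mitochondrial membrane, gave no vector difference past the threshold. BAX ran from 417 to 3035 with IKKb, from 444 to 2319.8 with IkB_SR and from 437 to 2863 with MiG, and IKKb against IkB_SR gave 0.06 ± 0.10 (limma adjusted p = 0.834; 95% interval -0.15 to 0.28). BAX was lower with IkB_SR than with MiG in 4 of 5 lines, at log2 -0.22 ± 0.10 (limma adjusted p = 0.995). With IKKb it was also lower than with MiG in 4 of 5 lines, at -0.15 ± 0.10 (limma adjusted p = 0.912). BAK1 ran from 375 to 1257 with IKKb, from 408 to 1204 with IkB_SR and from 413 to 1246 with MiG. IKKb against IkB_SR gave -0.08 ± 0.12 for BAK1 (limma adjusted p = 0.836; 95% interval -0.34 to 0.19), with H358 at -0.51 and HCC827 at 0.42. The lines therefore lay on both sides of 0 for both effectors.

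Among the caspase regulators, XIAP had the narrowest range of the 10. Its signals were 4524 to 6845 with IKKb, 3854 to 6909 with IkB_SR and 3912 to 6788 with MiG, and its difference between IKKb and IkB_SR was 0.02 ± 0.07 (limma adjusted p = 0.936), with a 95% interval in fold of 0.911 to 1.13. CFLAR signals with IKKb were 3492 (A549), 967 (H23), 1699.99 (H358), 679 (HCC827) and 1967 (PC9). With IkB_SR they were 3165, 632, 2969, 448 and 1358 in the same lines, and with MiG 3271, 914, 1909.6, 401 and 1769.7. IKKb was the highest of the 3 in A549, H23, HCC827 and PC9 and the lowest in H358, and the ranges overlap. The mean log2 difference of CFLAR between IKKb and IkB_SR was 0.21 ± 0.17 (limma adjusted p = 0.626), with H358 at -0.80 against 0.14 to 0.60 in the other 4 lines, and 10 of 11 other probe sets had the same sign. Without the H358 IKKb array, whose spike-in and actin ratio stood apart within its line, it was 0.38 (limma adjusted p = 0.332). That array's part in the H358 value was not tested.

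TNFAIP8, a TNF-induced gene whose product dampens apoptosis, lay on both sides of 0 by line. Its signal with IKKb was 2453 (A549), 1996 (H23), 2253 (H358), 2805 (HCC827) and 978 (PC9). With IkB_SR it was 1953, 807, 3825, 3723 and 1009.6 in the same lines, and with MiG 2135, 1276, 3029, 3471 and 1039. IKKb was above IkB_SR in H23 (log2 1.29) and A549 (0.33) and below it in H358 (-0.76), HCC827 (-0.41) and PC9 (-0.05). The mean of 0.08 ± 0.20 (limma adjusted p = 0.899) changed sign to -0.14 without the array labelled H23 IkB_SR, and to -0.22 without the whole H23 line.

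**Figure D3:**
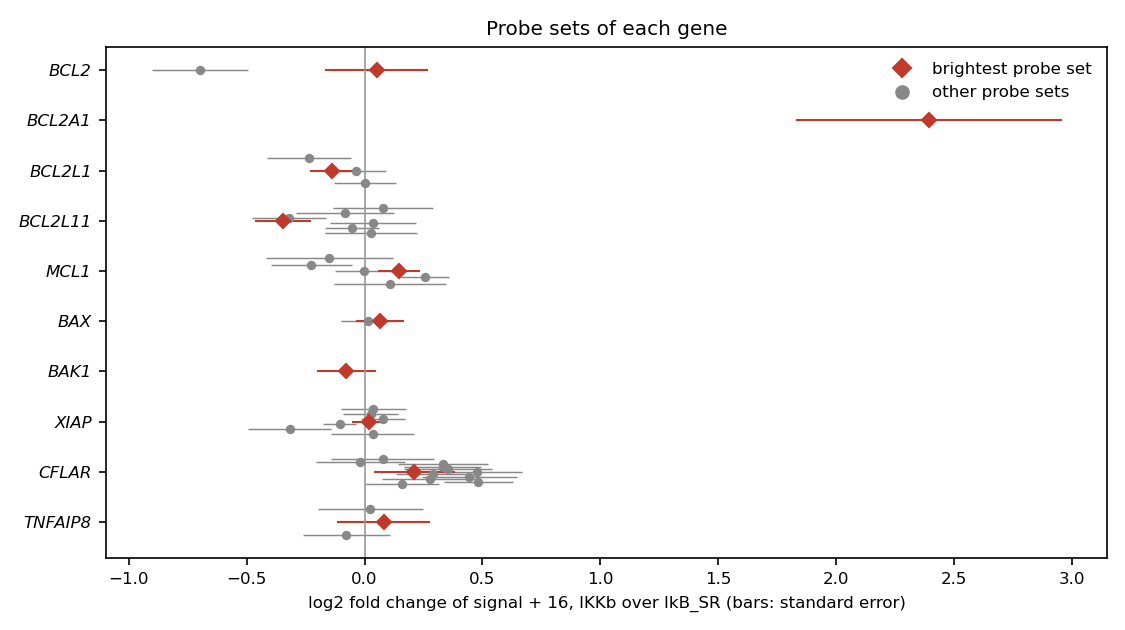
Log2 fold change of signal plus 16 between IKKb and IkB_SR for the brightest probe set of each gene (red diamonds) and for its other tested probe sets (grey points), with standard errors as bars. CFLAR has 10 of 11 other probe sets on the side of the brightest, and BCL2L11 has 3 of 6 on each side.

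All 10 members differed between the 5 lines with the vector held in the fit (limma moderated F test, adjusted p from 8.63e-10 for BAX to 0.00143 for BCL2A1), where 86.7% of all genes did. The 3 arrays of a line differ by vector and are not replicate cultures, so the spread here is that between vectors. Line and array handling cannot be told apart where they go together. The Dap spike-in read 154 to 161 on the A549 arrays and 1103 to 4376 on the other human arrays. The actin 3′ to 5′ ratio was 1.03 to 1.07 in A549 and 1.38 to 1.74 in H358. Their part in the line differences was not tested. Line differences took 52.3% of the sum of squares of log2 signal for BCL2A1, 97.8% for BCL2L1 and values between for the other 8, with a median of 88.5% over all genes. The vector took 27.9% for BCL2A1, more than for 98.5% of genes tested, then 8.18% for BCL2L11 and 0.262% to 1.89% for the other 8, beside a median of 1.94% over all genes.

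**Figure D4:**
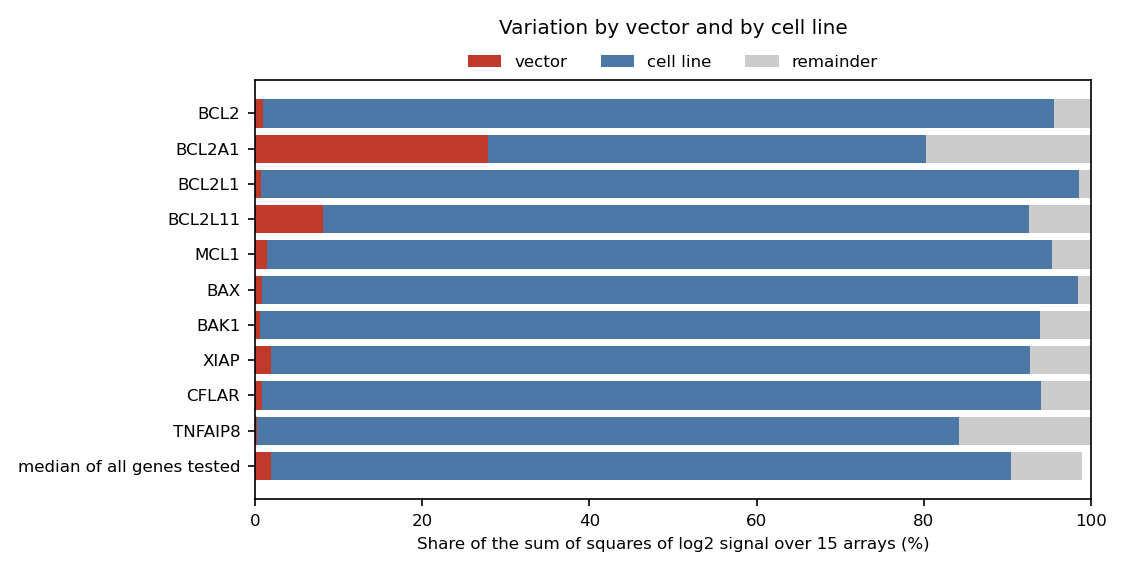
Share of the sum of squares of log2 signal over the 15 human arrays that goes with vector, with cell line and with neither, for each gene and as the median over all genes tested (medians of the 3 shares need not add to 100%). The vector share is 27.9% for BCL2A1 and at most 8.18% for the other 9 genes.

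By the brightest probe set of each gene, used here and below for line levels, the survival genes did not peak in the same line. BCL2 was highest in PC9 at 269 ± 32.5 and lowest in H358 at 20.1 ± 5.19 (SD, n = 3 arrays). The H358 signal was below the 40th percentile on all 3 arrays, as was that of HCC827 on 2 of 3, so no fold is given. In its order of PC9, H23, A549, HCC827 and H358, H23 did not differ from A549 past the threshold nor HCC827 from H358. BCL2L1 was highest in A549 at 2647 ± 358.4 and lowest in H23 at 423 ± 20.2, 6.04-fold, and H23 fell below each of the other 4 lines, the nearest being PC9 at 1472 ± 229 (limma adjusted p = 2.28e-08). Its neighbours A549 and HCC827, and H358 and PC9, were not told apart. Other BCL2L1 probe sets were split on the order. A second one read 866, 784 and 959 in HCC827 (MiG, IkB_SR, IKKb), against 583, 743 and 755 in A549. The dimmest read 137, 90.9 and 85.0 in A549, against 217, 137 and 106 in H23, so H23 was not lowest there. MCL1 was highest in H358 at 11065 ± 1009 and lowest in PC9 at 4098 ± 776, 2.72-fold, with H23 and HCC827 not told apart in between. BCL2A1 was highest in H358 by the fit, and its signal was dim on each of the 3 arrays in H23 and likewise in PC9, so no fold is given and those lines are not ranked. No neighbours in the fitted order of H358, A549, HCC827, PC9 and H23 passed the threshold. Thus by these probe sets PC9 had the most BCL2 and the least MCL1 of the 5 lines, and H358 the most MCL1. Another BCL2 probe set, dimmer on average, did not set PC9 apart. It read 75.0, 89.9 and 43.6 in PC9 (MiG, IkB_SR, IKKb), against 53.8, 54.6 and 56.7 in H358 and 48.0, 97.2 and 48.5 in HCC827. Other MCL1 probe sets were split on the top line. A bright one read 9772, 8060 and 11472 in H358 (MiG, IkB_SR, IKKb), against 4648, 4756 and 5396 in A549. A dimmer one read 660, 571 and 527 in H358, against 674, 694 and 693 in A549.

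BCL2L11 was highest in H358 at 1101 ± 126 and lowest in HCC827 at 398 ± 6.72, 2.68-fold, in the order H358, A549, PC9, H23 and HCC827. In that order A549 did not differ from PC9 past the threshold, nor PC9 from H23. BAX and BAK1 ran in nearly opposite orders. BAX was highest in A549 at 2739 ± 373 and lowest in HCC827 at 433 ± 14.3, 6.10-fold, in the order A549, H23, PC9, H358 and HCC827, where A549 and H23 were not told apart. BAK1 was highest in HCC827 at 1147 ± 182 and lowest in A549 at 402 ± 14.9, 2.76-fold, in the order HCC827, H358, H23, PC9 and A549, where the first pair and the last pair were not told apart.

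XIAP was highest in HCC827 at 6848 ± 60.4 and lowest in A549 at 4097 ± 372, 1.67-fold, and H23, H358 and PC9 lay between with no neighbours among them past the threshold. CFLAR was highest in A549 at 3310 ± 167 and lowest in HCC827 at 509 ± 148, 6.49-fold. Its order was A549, H358, PC9, H23 and HCC827, of which H358 and PC9 were not told apart. A second CFLAR probe set also had A549 highest, at 2137, 2158 and 2253 (MiG, IkB_SR, IKKb), against 1634, 2050 and 1064 in H358. Several dimmer ones had H358 highest, among them 1 at 825, 741 and 614, against 467, 440 and 406 in A549. TNFAIP8 was highest in HCC827 at 3333 ± 475 and lowest in PC9 at 1009 ± 30.8, 3.25-fold, in the order HCC827, H358, A549, H23 and PC9, and among neighbours A549 and H23 were told apart. By the brightest probe sets HCC827 thus had the lowest BAX, BCL2L11 and CFLAR and the highest XIAP of the 5 lines. Each was apart from its neighbour past the threshold, while for BAK1 and TNFAIP8 HCC827 was not told apart from H358. Other probe sets of CFLAR and BCL2L11 were split on the lowest line. For CFLAR 1 of them read 157, 226 and 290 in HCC827 (MiG, IkB_SR, IKKb), against 106, 137 and 134 in PC9. For BCL2L11 1 of them read 131, 119 and 154 in HCC827, against 140, 98.5 and 59.4 in H358.

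In LLC, IKKb was compared with MiG on 2 arrays each. None of the 8 counterparts passed the threshold in limma (0 of 8, beside 0% of all genes tested), and at the unadjusted level 1 of 8 did, Tnfaip8, beside 1.90% of all genes. Tnfaip8 had signals of 1304 and 832 with IKKb, against 666 and 598 with MiG. The median log2 difference of the 8 was 0.04, against 0.00 over all genes. Tnfaip8 was the 1 member of 8 whose groups did not overlap, a pattern shown by 22.1% of all genes tested. The log2 difference was 0.71 ± 0.25, 1.63-fold with a 95% interval of 1.07-fold to 2.49-fold (limma adjusted p = 0.9997), and a second, dimmer probe set lay on the same side at 0.40. With the array number as a block 1 of 8 members passed, Tnfaip8 (limma adjusted p = 0.000410), where 1.78% of all genes did. That fit leaves 1 residual degree of freedom, so its errors rest mostly on the spread shared over genes and little on the gene itself. At the unadjusted level that fit gave 3 of 8, Tnfaip8, Bcl2l11 (0.38 ± 0.12) and Bcl2 (-0.27 ± 0.11), where 10.7% of all genes passed, but the labels do not say what arrays of 1 number share. In the human lines the same contrast gave 0.00 ± 0.20 for TNFAIP8.

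Bcl2l11 had signals of 1465 and 852 with IKKb, against 913 and 800 with MiG. The groups overlap, and the log2 difference of 0.38 ± 0.28 was -0.01 without the IKKb array numbered 1. The other 4 of 4 tested probe sets lay on the same side, at 0.22 to 0.44, and each of the 5 was higher with IKKb on both same-numbered pairs of arrays. Bcl2 had 1034 and 851 with IKKb, against 1283 and 1004 with MiG, at -0.27 ± 0.21, and 4 of 4 other probe sets had the same sign. Mcl1 had 3661 and 4974 with IKKb, against 3342 and 4759 with MiG, at 0.10 ± 0.25. Within each vector the array numbered 2 was the higher for Mcl1, Bcl2l1, Bak1 and Xiap and the lower for Bcl2, Bcl2l11 and Tnfaip8. Bcl2l1 (-0.07 ± 0.23), Bak1 (0.24 ± 0.29), Xiap (-0.09 ± 0.18) and Cflar (-0.01 ± 0.18) overlapped between the vectors. As a check that the vector acted in LLC, Relb had 624 and 338 with IKKb, against 140 and 95.5 with MiG (log2 1.85 ± 0.36, limma adjusted p = 0.915).

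**Figure D5:**
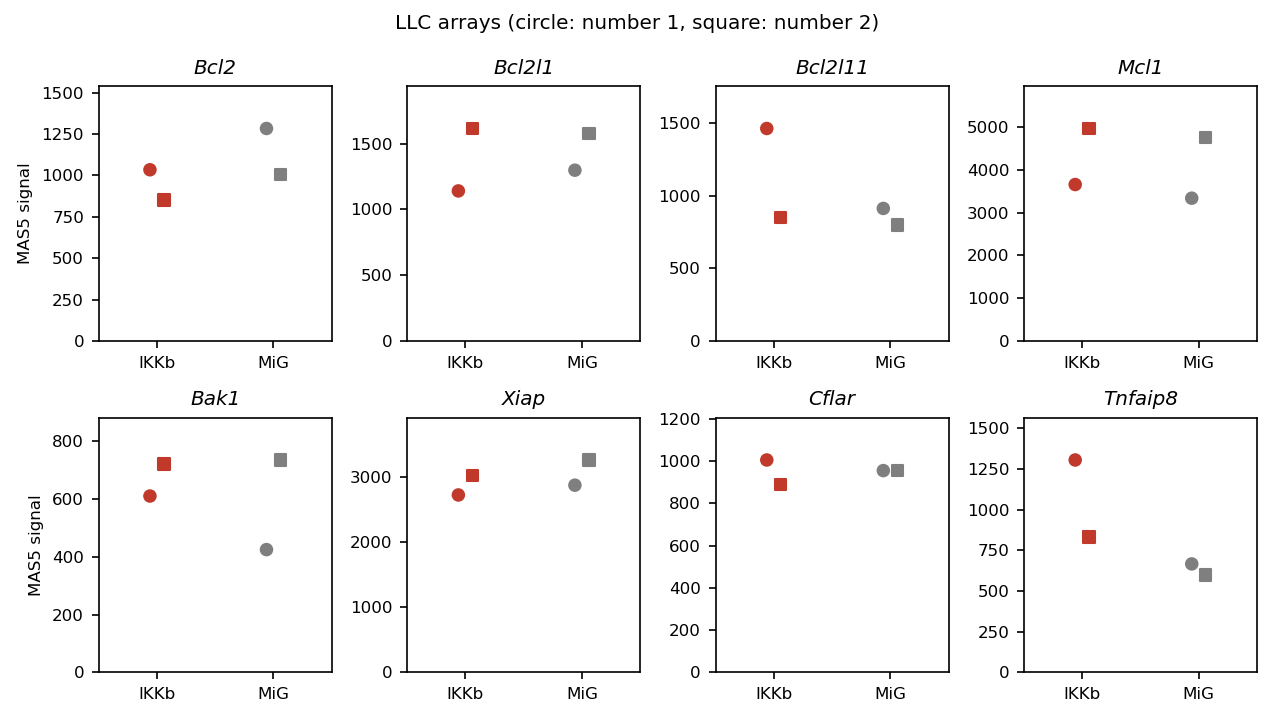
MAS5 signal (linear axis from 0) of the 8 measured counterparts on the LLC arrays, IKKb on the left and MiG on the right, with circles for arrays numbered 1 and squares for arrays numbered 2. Tnfaip8 is the gene whose 2 IKKb arrays, at 1304 and 832, both lie above its 2 MiG arrays, at 666 and 598.

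A wider list of 44 genes of the same pathways set the members in context. It held 39 genes with a single-gene human probe set, of which 37 were tested. Between IKKb and IkB_SR 2 of 37 rose and 0 fell (0.611% and 0.322% of all genes). BIRC2, which encodes the ubiquitin ligase cIAP1 of TNF receptor signalling, had signals with IKKb of 4081 (A549), 9617 (H23), 8223 (H358), 5670.1 (HCC827) and 5332 (PC9), against 3086, 5999.8, 5371, 3141 and 3137 with IkB_SR in the same lines. It was higher with IKKb in each line, by log2 0.66 ± 0.10, 1.58-fold (limma adjusted p = 0.00682). MLKL, the pore-forming executor of necroptosis, had signals with IKKb of 1683, 372, 819, 979.9 and 1549 in the same order of lines, against 1307, 209, 643, 399.7 and 975.3 with IkB_SR. It too was higher in each line, by 0.68 ± 0.12, 1.60-fold (limma adjusted p = 0.0192). Leaving out the HCC827 line ended both calls (limma adjusted p = 0.0651 for BIRC2 and 0.0849 for MLKL), as did leaving out PC9 (0.0641 and 0.102). MLKL alone was lost without H23 (0.0858) and without the array labelled H23 IkB_SR (0.0505). Of all 15212 genes tested, 31 passed without HCC827 and 24 without PC9, against 142 with all arrays. The count was 67 without H23 and 69 without the array labelled H23 IkB_SR.

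Other genes of the wider list did not pass in any vector comparison. Between IKKb and IkB_SR, at an unadjusted limma p of 0.05, 7 of 37 were higher and 3 lower. Of all genes 6.23% and 7.97% were. Values are given only for the 3 smallest p per direction. BID, the BH3-only protein that links caspase-8 to mitochondria, gave 0.34 ± 0.08 between IKKb and IkB_SR (limma adjusted p = 0.0705), higher in 5 of 5 lines. On the lower side TNFAIP8L1, a relative of TNFAIP8, gave -0.28 ± 0.11, the mitophagy receptor BNIP3L -0.19 ± 0.08 and the giant IAP ubiquitin ligase BIRC6 -0.26 ± 0.12. The death receptor FAS lay lower with IkB_SR than with MiG by log2 -0.61 ± 0.21 (limma adjusted p = 0.995), in 4 of 5 lines, among which PC9 had 578 against 1426. IkB_SR against MiG gave -0.39 ± 0.12 for MLKL and -0.31 ± 0.10 for BIRC2, and on the higher side 0.19 ± 0.12 for BIRC6, 0.42 ± 0.26 for the BH3-only gene BMF and 0.16 ± 0.10 for the co-chaperone BAG3. IKKb against MiG gave 0.35 ± 0.10 for BIRC2, 0.22 ± 0.08 for BID and 0.29 ± 0.12 for MLKL, and on the lower side -0.24 ± 0.11 for TNFAIP8L1, -0.55 ± 0.28 for the BH3-only gene HRK and -0.12 ± 0.07 for BNIP3. Of 52 promoter stretches of 31 genes of the list, 10 held an NF-kB-type motif (19.2%), including both BIRC2 start sites and not that of MLKL.

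In LLC 33 genes of the wider list were tested and 0 passed, while with the array number as a block 3 rose (1.24% of all genes did), Bid, Fas and Pmaip1 (limma adjusted p = 0.00715, 0.0335 and 0.0491). The smallest p-values on the higher side were those of Fas, with 88.9 and 77.2 with IKKb against 13.7 and 29.96 with MiG (log2 1.42 ± 0.41), of Bid, with 1085 and 824 against 633 and 645 (0.55 ± 0.21), and of the BH3-only gene Pmaip1 (0.65 ± 0.26). Fas was dim in both MiG arrays. On the lower side were Hrk (-0.59 ± 0.32), the death ligand gene Tnfsf10 (-0.43 ± 0.41) and the cytochrome c gene Cycs (-0.30 ± 0.31).

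Genes whose pattern over vectors was most like that of a member were sought among all genes tested, after the mean of each line was taken out, for the 3 members with the smallest p between IKKb and IkB_SR. BCL2A1 was followed most closely by ZMIZ2 (Pearson r = 0.96), PRKD3 (0.96) and TRIM27 (0.95). The H358 and HCC827 arrays with IKKb, at BCL2A1 signals of 1529.7 and 745, weigh most in these values. The H358 one stood apart technically within its line. BCL2L11 was followed by S100A12 (0.91), LZTS3 (0.87) and CLMP (0.87), and MCL1 by PIK3CD (0.92), SFMBT2 (0.85) and RALGPS1 (0.85). These are descriptions over 15 arrays that share lines, and the closest of so many genes is high by selection. Among the members themselves the same measure ran from -0.67 between BCL2L11 and BAX to 0.68 between BCL2L1 and BAK1.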

How the data were processed

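Total RNA of 19 samples was labelled and hybridised to single-colour Affymetrix arrays, 15 human and 4 mouse. Intensity values were deposited for each probe set, computed with GCOS 1.4 and MAS5 per the submitters' processing notes, and the files show a mean of 500 after trimming the outer 2 percent of each array. Of 54675 human and 45101 mouse probe sets, 41097 and 34958 name 1 gene. The brightest of a gene was used, as log2 of signal plus 16, and genes above the 40th percentile in at least 5 human or 2 mouse arrays were tested. No further scaling was applied. The limma 3.58.1 fits (R 4.3.3; lmFit, eBayes with trend, two-sided) took all 15 human arrays with cell line as a block, since each line carries each vector, and the 4 LLC arrays without one, with Benjamini-Hochberg adjustment over all genes tested at 0.05. Fits were tested on simulated data. The number of arrays limits the precision. Named genes are the 10 members, genes of the wider list past the threshold or among the 3 smallest p per direction, the 3 genes most like each of 3 members, and NFKBIA, TNFAIP3 and RELB. Members and lists were chosen with earlier results of these data known. Alternatives covered pseudocount, scaling, filter, probe set choice, prior, block and left-out arrays. Promoter sequences are RefSeq's (GRCh38.p14). Figures used matplotlib 3.10.9 in Python 3.11.15.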

Additional observations from a re-analysis of the deposited data

Results flagged for a closer look

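Of 60 sets of 5 line values examined (levels per vector and differences per comparison of the 10 genes), 2 held a value far from the other 4 (3.33%), and chance alone gives about 1 in 20. BCL2L1 had a log2 signal of 8.71 in the array labelled H23 IkB_SR, against 10.72 to 11.29 in the other 4 IkB_SR arrays, and H23 was also lowest for this gene with IKKb (8.78) and MiG (8.84). BCL2L11 had a log2 difference between IkB_SR and MiG of 0.04 for HCC827, while A549, H23, H358 and PC9 lay between 0.27 and 0.35.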

How the results depend on the processing

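The number of members past the threshold between IKKb and IkB_SR was 1, BCL2A1, with a pseudocount of 1 (119 of 15212 genes passed) and with median centring (137 of 15212). It was 0 under the other 16 alternatives, and the cause was not tested. The number of members was 0 under all 18 alternatives between IKKb and MiG and between IkB_SR and MiG. All tested members differed between lines under all 14 alternatives, under which 11153 to 14241 of all genes did. At the 60th percentile filter, which drops BCL2 and BCL2A1, 8 of 8 did, beside 11153 of 11602 genes. With the replicate number as a block in LLC, which leaves 1 residual degree of freedom, 1 member, Tnfaip8, passed (limma adjusted p = 0.000410). With that block 223 of 12549 genes passed, against 0 without it, and Bid, Fas and Pmaip1 of the wider list were among them. The labels do not say what the LLC numbers share, and the deviations of same-numbered arrays correlated at 0.53 across genes. Without the line block no gene passed between IKKb and IkB_SR, and the alternatives gave 0 to 149 genes against 142. IkB_SR against MiG reached 8 genes without H358, and IKKb against MiG 1 gene with the mean of the probe sets. In LLC leaving out 1 array gave 5 to 138 genes. Of 646 recomputed values 35 changed sign, none of them past the threshold, and of 132 values from other probe sets 42 did. BIRC2 kept its call under 14 of 18 alternatives (log2 0.61 to 0.73) and MLKL under 11 of 18 (0.54 to 0.77); both lost it with eBayes without a trend and without the block. Removing the H358 IKKb array or the array labelled H23 IkB_SR was chosen knowing the data. Dim signals limit BCL2 and BCL2A1.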
